A study of Mus musculus with 28 samples.

Results

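Hoxa5, Hoxa6, Hoxa7, Hoxa9 and Hoxa10 are neighbouring genes in the middle of the HoxA cluster, chosen by name from a table of 17295 mouse genes. All 5 were in the table, and 4 of them, all but Hoxa6, had the mean value of at least 10 over the 28 libraries that a test required. The libraries came from 14 groups of 2, in which fibroblasts of young or old mice were compared with neural stem cells (NSC) and with stem cells of neural type induced from fibroblasts (miNSC).

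The 3 fibroblast groups carried no factor and came from Sox2-GFP mice: tail-tip fibroblasts at 1.0 and 2.5 years, and skin fibroblasts at 2.5 years. NSC, also without factor, came from Sox2-GFP mice of 2.5 years and were sampled at passages 2 and 5. The 10 miNSC groups carried lentiviruses for M2rtTA and for doxycycline-inducible transcription factors, received 1 µg/mL doxycycline for 18 days, and were expanded from colonies picked at day 20. Cocktails are written by letter, with F for eSox17FNV (an engineered Sox17) and with the labels' letters B, K and M for the remaining factors; 4F means all letters together. The lines from embryonic fibroblasts (MEF) were BKF and KF for cells labelled ICR, and BKF, KF and KMF for cells labelled Sox2-GFP. The adult lines were of Sox2-GFP origin at 1.0 year: BKF, KMF and 4F (at passages 8 and 18) from the tail tip, and a separate 4F from the ear. No library of embryonic, ear or ICR fibroblasts was analysed here. Each cocktail on each origin is represented by 1 group, except tail-tip 4F, whose passages 8 and 18 form 2 groups of 1 line. These 2 groups count separately in means over groups. Libraries of a group may share a picked colony, so cocktail and line cannot be told apart. P-values reflect only the scatter of libraries within groups, pooled over all 14 groups, which can be technical in part.

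Hox genes encode homeodomain transcription factors that give cells their identity along the head to tail axis. Within a cluster they lie in the order in which they act: genes of low number are used in the hindbrain and neck, and genes of high number towards the trunk, limbs and tail. Adult fibroblasts are known to keep much of the Hox pattern of the site they came from, and Polycomb proteins hold unused Hox genes silent. Hoxa5 is known for roles in the neck and upper trunk, including lung and phrenic motor neurons. Hoxa6 and Hoxa7 act in the trunk, and Hoxa9 and Hoxa10 in the trunk, the limbs, the spinal cord and the urogenital tract.

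The genes were located on GRCm38 (mm10), chromosome 6, minus strand, in GENCODE M21. Hoxa5 spans chr6:52201754-52204587, Hoxa6 chr6:52206288-52208722, Hoxa7 chr6:52214491-52221854, Hoxa9 chr6:52223100-52231089 and Hoxa10 chr6:52231197-52240854. Together they cover 39.1 kb of the 98.5 kb from Hoxa2 to Hoxa13. Exons of Hoxa7 share 586 bases, 20.4% of its exonic length, with the antisense gene Hoxaas3, and Hoxa9 exons contain the 85 bases of Mir196b. Whether reads were counted by strand is not given in the sources used here, so Hoxa7 values may include antisense reads. Exons of Hoxa5, Hoxa6 and Hoxa10 shared no bases with exons of other annotated genes. Hoxa5 and Hoxa6 lie within the annotated spans of Hoxa3, on the same strand, and of Hoxaas3.

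The 250 bases before the RefSeq starts of Hoxa5, Hoxa9 and Hoxa10 (RefSeq, GRCm38.p6, shown 5′ to 3′ on the minus strand) are printed because Hoxa5 was lower and Hoxa9 and Hoxa10 were higher in one tail-tip line than in another (4F against BKF), and because these windows hold no annotated exon. Capitals mark TTTAT or its reverse complement ATAAA, the core letters of sites for the caudal-type Cdx regulators of trunk Hox genes. Hoxa10 has 2 RefSeq starts in the table, and both windows are given.

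Hoxa5, chr6:52204588-52204837: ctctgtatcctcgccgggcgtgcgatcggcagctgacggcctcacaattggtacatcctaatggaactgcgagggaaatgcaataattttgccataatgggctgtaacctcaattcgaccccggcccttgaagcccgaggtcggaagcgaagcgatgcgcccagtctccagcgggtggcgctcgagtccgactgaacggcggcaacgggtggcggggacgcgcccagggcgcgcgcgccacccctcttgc
Hoxa9, chr6:52227371-52227620: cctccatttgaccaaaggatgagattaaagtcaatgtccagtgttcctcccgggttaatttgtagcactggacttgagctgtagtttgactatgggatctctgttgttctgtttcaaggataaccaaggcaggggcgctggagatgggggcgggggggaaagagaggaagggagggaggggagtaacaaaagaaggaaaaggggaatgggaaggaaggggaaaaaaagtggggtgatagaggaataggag
Hoxa10, first start, chr6:52240855-52241104: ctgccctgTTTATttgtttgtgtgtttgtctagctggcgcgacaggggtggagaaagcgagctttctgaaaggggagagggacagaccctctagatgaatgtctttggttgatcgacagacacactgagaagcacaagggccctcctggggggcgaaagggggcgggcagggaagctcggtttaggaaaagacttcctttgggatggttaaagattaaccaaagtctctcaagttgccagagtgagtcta
Hoxa10, second start, chr6:52234940-52235189: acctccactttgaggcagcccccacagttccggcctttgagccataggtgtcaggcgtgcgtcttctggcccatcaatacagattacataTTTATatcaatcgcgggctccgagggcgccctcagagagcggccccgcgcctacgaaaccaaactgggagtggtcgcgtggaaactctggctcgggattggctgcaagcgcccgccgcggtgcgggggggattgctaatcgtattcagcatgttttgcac

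The windows of Hoxa6 and Hoxa7, which include 50 and 78 bases of their own exons, are not printed. The Hoxa5 window has 28 CpG dinucleotides, the Hoxa9 window 3, and the Hoxa10 windows 7 and 20; the median over 32851 RefSeq windows of the same length was 6. TTTAT on either strand occurs once in each Hoxa10 window and is not in the Hoxa5, Hoxa6 and Hoxa9 windows, while the Hoxa7 window has it 2 times; 37.3% of all windows hold it. Neither the Pbx-Hox motif TGATTNAT (2.82% of all windows) nor the retinoic acid receptor half-site AGGTCA (14.02%) was found on either strand of the members' windows. Such matches describe letters only and are not measured binding sites.

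Values are whole-number normalised expression values with nearly equal library totals (15563679 to 15571626), so sequencing depth, and with it any limit of detection, is unknown. Levels are compared between samples for 1 gene at a time and not between genes. A fold change is a difference of group means of log2(value + 1) ± SE, which understates changes of low values, and a call is an adjusted p under 0.05 in limma, with Benjamini-Hochberg adjustment over 16275 genes. Fibroblasts, miNSC and NSC fitted their labels by fibroblast and neural stem cell markers. Summed over 10 fibroblast markers, fibroblast libraries had 218168 to 229675 and miNSC libraries 584 to 4623. Over 8 neural stem cell markers the sums were 534 to 802 in fibroblasts, where Sox2, Sox1, Olig2 and Hes5 were listed at 0, and 48412 to 129562 in miNSC. NSC had 1372 to 2243 for the fibroblast and 56312 to 119954 for the neural stem cell markers. The NSC libraries stood apart from each other: 3141 genes differed by more than 2-fold between them, against 787 to 1201 within other groups. Each SE pools the scatter of all 14 groups, so this pair enters it also where NSC are not compared. The members in every library are shown in the plot of values by library.

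**Figure D1:**
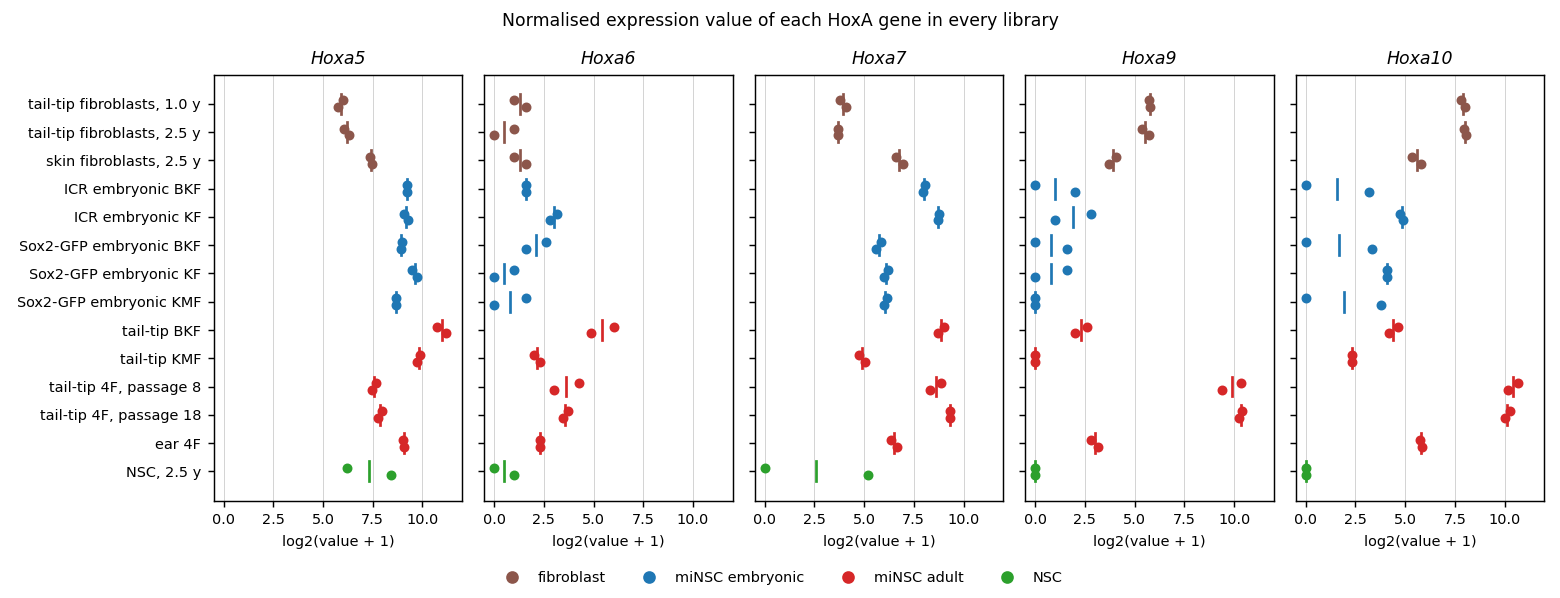
Normalised expression value of each member in every library, as log2(value + 1) on the x axis, with 1 point per library and a vertical line at the mean of these logs; colours mark fibroblasts, miNSC of embryonic origin, miNSC of adult origin and NSC. Hoxa5 is above the fibroblasts in all 20 miNSC libraries, while Hoxa9 and Hoxa10 are above every fibroblast library only in the 4 libraries of the tail-tip 4F line.

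Hoxa5 was higher in induced neural stem cells than in fibroblasts. In fibroblasts its values were 64 and 53 (tail tip, 1.0 year), 66 and 78 (tail tip, 2.5 years) and 161 and 176 (skin). In miNSC of embryonic origin the lowest, median and highest of 10 libraries were 399, 557.5 and 834, and in miNSC of adult origin 178, 528 and 2286. The lowest miNSC library thus lay just above the highest fibroblast library, and the groups did not overlap. Over all lines Hoxa5 rose by a log2 fold change of 2.59 ± 0.19 (668.5 ± 512.1, SD, n = 20, against 99.7 ± 54.1, SD, n = 6; limma adjusted p = 2.01e-09). In bulk RNA of this kind, a change in the number of cells that express a gene and a change in RNA per cell cannot be told apart. In this contrast 76.5% of all tested genes were called (42.8% higher, 33.7% lower), and 4 of 4 tested members were among them, 2 higher and 2 lower. That share is too high for a count of members to stand apart from it, and the contrast also mixes strain, age and site of origin. Markers of other cell types moved with it: macrophage sums were 302 to 1204 in fibroblasts and 10 to 199 in miNSC, skeletal muscle sums 842 to 1272 and 0 to 6, and astrocyte sums 112 to 555 and 11646 to 29935. Their part in the result was not tested. With each group mean as 1 sample, Hoxa5 was the 1 member still called (adjusted p = 0.00317; 53.6% of genes called).

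By group mean, Hoxa5 was highest in the tail-tip BKF line (1725 and 2286), followed by the tail-tip KMF line (933 and 850). Next came the Sox2-GFP MEF KF line (722 and 834), which did not overlap with its neighbours in this order. ICR MEF BKF (599 and 586), ICR MEF KF (529 and 620) and ear 4F (526 and 530) overlapped in sequence. Below them were Sox2-GFP MEF BKF (500 and 482) and KMF (399 and 404). The tail-tip 4F line was the lowest of the miNSC lines, with 204 and 178 at passage 8 and 247 and 216 at passage 18, and its range overlapped that of NSC (74 at passage 2 and 339 at passage 5). Skin fibroblasts and then both tail-tip groups closed the order.

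Hoxa6 was the lowest-valued member, with a mean of 6.79 over all libraries, and was not tested in the main analysis. The tail-tip BKF line had 64 and 28, the tail-tip 4F line 18 and 7 at passage 8 and 12 and 10 at passage 18, and the ICR MEF KF line 8 and 6. All other libraries had 5 or less, with 0 to 2 in fibroblasts and 0 and 1 in NSC. The BKF libraries did not overlap with any other group. With no filter on low values, Hoxa6 was higher in tail-tip BKF than in 1.0-year tail-tip fibroblasts (log2 fold change 4.15, adjusted p = 1.68e-05) and higher there than in tail-tip KMF (KMF minus BKF, -3.28, adjusted p = 0.0020).

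Hoxa7 was also higher in miNSC, but with overlap and wide differences between lines. Fibroblasts had 13 and 16 (tail tip, 1.0 year), 12 and 12 (tail tip, 2.5 years) and 96 and 122 (skin). The lowest, median and highest values were 48, 71 and 436 in miNSC of embryonic origin and 26, 368 and 648 in miNSC of adult origin. The log2 fold change from fibroblasts was 2.48 ± 0.44 (249.0 ± 215.7, SD, n = 20, against 45.2 ± 50.1, SD, n = 6; limma adjusted p = 8.34e-05), and with group means as samples adjusted p = 0.0572. The order began with tail-tip 4F at passage 18 (648 and 632), which stood apart from the next. Tail-tip BKF (521 and 416), ICR MEF KF (436 and 414) and tail-tip 4F at passage 8 (473 and 320) overlapped. ICR MEF BKF (266 and 246) came below these. Values of 48 to 122 were found in skin fibroblasts, ear 4F (80 and 98) and the 3 Sox2-GFP MEF lines. Tail-tip KMF had 26 and 32, NSC 0 and 36, a range that held the tail-tip fibroblasts, whose means were lowest.

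Hoxa9 and Hoxa10, the members nearest the tail end of the cluster, were present in fibroblasts and lower or at 0 in the miNSC lines other than tail-tip 4F, except that Hoxa10 in ear 4F overlapped skin fibroblasts. Hoxa9 values in fibroblasts were 52 and 54 (tail tip, 1.0 year), 40 and 52 (tail tip, 2.5 years) and 16 and 12 (skin). In the 16 miNSC libraries outside the tail-tip 4F line they ran from 0 to 8 with a median of 1.5, and 7 of these were listed at 0. The tail-tip 4F line had 1299 and 680 at passage 8 and 1358 and 1234 at passage 18. Every library of that line was far above every fibroblast library, and every other miNSC library was below them.

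Hoxa10 values in fibroblasts were 220 and 254 (tail tip, 1.0 year), 246 and 270 (tail tip, 2.5 years) and 40 and 54 (skin). In the same 16 miNSC libraries they ran from 0 to 56 with a median of 14.5, highest in ear 4F (53 and 56). The tail-tip 4F line had 1626 and 1160 at passage 8 and 1239 and 1030 at passage 18. Both NSC libraries were listed at 0 for Hoxa9 and for Hoxa10. In the order of group means the 2 passages of the 4F line led for both genes and overlapped each other, then came the 2 tail-tip fibroblast groups, which also overlapped, and skin fibroblasts and ear 4F followed. Skin fibroblasts and ear 4F overlapped for Hoxa10 and stood apart for Hoxa9.

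Because 1 line departs so far from the others, the mean over miNSC depends on the scale. Against fibroblasts the log2 fold change was -2.07 ± 0.32 for Hoxa9 (limma adjusted p = 1.80e-05) and -2.44 ± 0.51 for Hoxa10 (limma adjusted p = 3.39e-04). The means of the values themselves went the other way: 230.3 ± 484.3 in miNSC against 37.7 ± 19.0 in fibroblasts for Hoxa9, and 266.5 ± 521.9 against 180.7 ± 104.9 for Hoxa10 (SD, n = 20 and 6). Without the tail-tip 4F groups the log2 fold changes were -3.84 and -3.83. Neither call held with group means as samples (adjusted p = 0.382 and 0.208), and with miNSC of adult origin alone the log2 fold changes were 0.036 and -0.54, not called. Adding 10 in place of 1 before the logarithm gave -0.56 for Hoxa9 and -1.61 for Hoxa10.

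The map along the cluster sets the members among other HoxA genes.

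**Figure D2:**
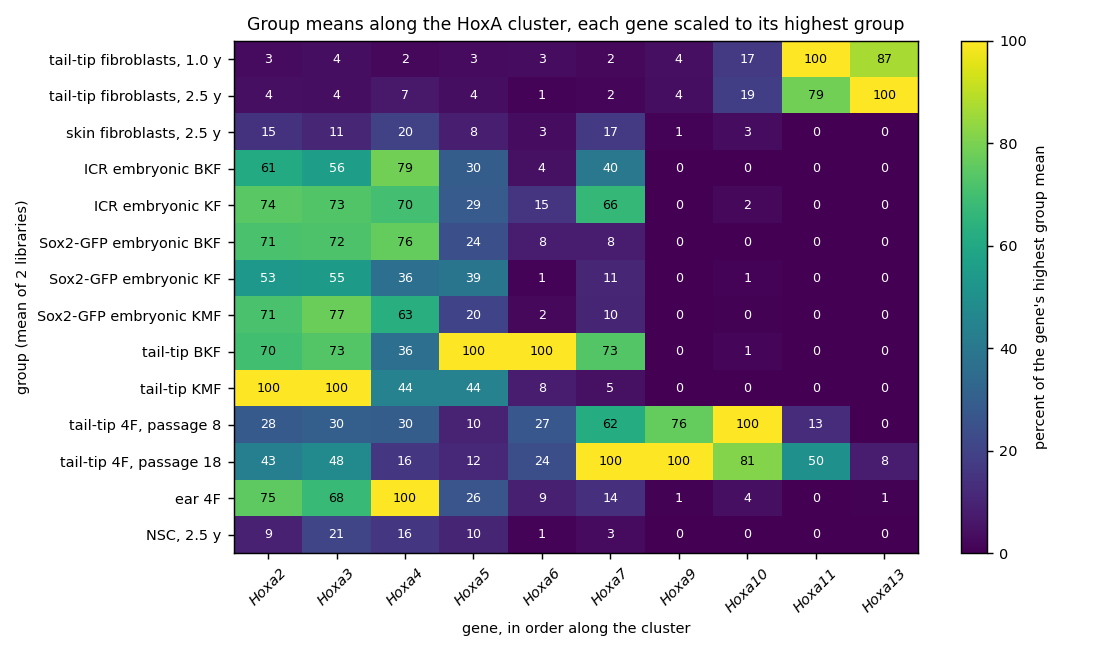
Group means of 10 HoxA genes, in order along the cluster on the x axis and with groups on the y axis; each cell gives the percent of that gene's highest group mean. Hoxa2 and Hoxa3 are at 3 to 15 percent in fibroblasts and at 28 to 100 percent in miNSC lines; Hoxa9 and Hoxa10 are at 76 to 100 percent in the tail-tip 4F line and at 0 to 4 percent in the other miNSC lines.

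Genes on the head side of the members rose in miNSC against fibroblasts together with Hoxa5 and Hoxa7. The log2 fold changes were 3.95 ± 0.44 for Hoxa2, 3.55 ± 0.26 for Hoxa3 and 2.68 ± 0.22 for Hoxa4, all of which act in the hindbrain and neck. On the tail side Hoxa11, a limb and kidney gene, fell with a log2 fold change of -3.69 ± 0.11. Of 8 HoxA genes tested here, 5 rose and 3 fell, with a median log2 fold change of 2.53 beside 0.10 over all tested genes. With 76.5% of all tested genes called (42.8% higher, 33.7% lower), that count is near the background. Hoxa11 was above 0 only in the tail-tip fibroblasts (132 and 188 at 1.0 year, 124 and 128 at 2.5 years) and in the tail-tip 4F line, with 18 and 23 at passage 8 and 78 and 82 at passage 18. Hoxa13, which acts at the tail tip and in digits, was at 57 and 56 in 1.0-year and 59 and 71 in 2.5-year tail-tip fibroblasts, at 5 and 5 in the tail-tip 4F line at passage 18, and at 1 or 0 elsewhere.

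Neighbours outside the Hox genes changed in both directions. Of 8 flanking genes, 4 rose and 4 fell, also near the background, among them Skap2, an adaptor protein of immune cells, with a log2 fold change of 2.10 ± 0.07, and Snx10, a sorting nexin, with -0.48 ± 0.04. The noncoding RNA gene Halr1, on the head side of the cluster, rose by 5.18 ± 0.54.

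What each cocktail gave from 1 kind of starting cell was asked with the tail-tip lines. Against the 1.0-year tail-tip fibroblasts, all 4 tested members were called in the BKF line. Hoxa5 rose by 5.07 ± 0.41 on the log2 scale and Hoxa7 by 4.92 ± 0.95 (limma adjusted p = 1.74e-08 and 2.77e-04). Hoxa9 fell by 3.46 ± 0.69 on the log2 scale, from 53.0 ± 1.4 to 4.0 ± 1.4, and Hoxa10 fell by 3.48 ± 1.09, from 237.0 ± 24.0 to 20.5 ± 4.9 (SD, n = 2; limma adjusted p = 3.47e-04 and 0.0108). The Hoxa10 call was lost without BKF replicate 2 (adjusted p = 0.0564). In this comparison 61.7% of all tested genes were called.

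In the KMF line, Hoxa5 rose by 3.91 ± 0.41 on the log2 scale (limma adjusted p = 3.81e-07), and Hoxa10 fell by 5.57 ± 1.09 to 4 in both libraries (limma adjusted p = 2.85e-04). Hoxa9 was listed at 0 in both (limma adjusted p = 1.59e-06). Hoxa7, at 26 and 32 against 13 and 16, was not called (0.95 ± 0.95, limma adjusted p = 0.415). With only the 2 groups compared in the fit, Hoxa7 passed (limma adjusted p = 0.0206). The share of all genes called in the main fit was 62.9%.

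In the 4F line Hoxa9 rose rather than fell. At passage 8, Hoxa9 rose by 4.12 ± 0.69 on the log2 scale, Hoxa7 by 4.66 ± 0.95 and Hoxa5 by 1.69 ± 0.41 (limma adjusted p = 6.71e-05, 4.65e-04 and 0.0020; 60.5% of all genes called). Hoxa10 was above the fibroblasts in both libraries, with a log2 fold change of 2.53 ± 1.09 that missed the threshold (limma adjusted p = 0.0551). At passage 18 the log2 fold changes were 4.58 ± 0.69, 5.38 ± 0.95 and 1.97 ± 0.41 for Hoxa9, Hoxa7 and Hoxa5, all called (60.3% of all genes called), and 2.25 ± 1.09 for Hoxa10 (limma adjusted p = 0.0871). Hoxa10 passed the threshold in both comparisons when only the 2 groups compared entered the fit (adjusted p = 0.00287 and 0.00198) or when 10 was added before the logarithm (9.41e-06 and 3.29e-05). These 4 comparisons share the same 2 fibroblast libraries. The fibroblast marker sum was 1428 to 1609 in the 4F line at passage 8 and 2401 to 2513 at passage 18. Its source fibroblasts had 229580 to 229675. Of the 10 markers, 2 (Pdgfrb and Twist2) were listed at 0 in the 4F line. The part of these markers in the result was not tested.

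Taken as 1 class, the 4 tail-tip miNSC groups differed from their fibroblasts in Hoxa5 (3.16 ± 0.33) and Hoxa7 (3.98 ± 0.75), with 66% of all genes called. Hoxa9 (-0.13 ± 0.54) and Hoxa10 (-1.07 ± 0.86) were not called (limma adjusted p = 0.860 and 0.297). Without the 4F groups these were -4.61 and -4.53 (adjusted p = 3.53e-06 and 4.70e-04), and with 10 added before the logarithm Hoxa9 became 0.86 (adjusted p = 8.16e-04).

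**Figure D3:**
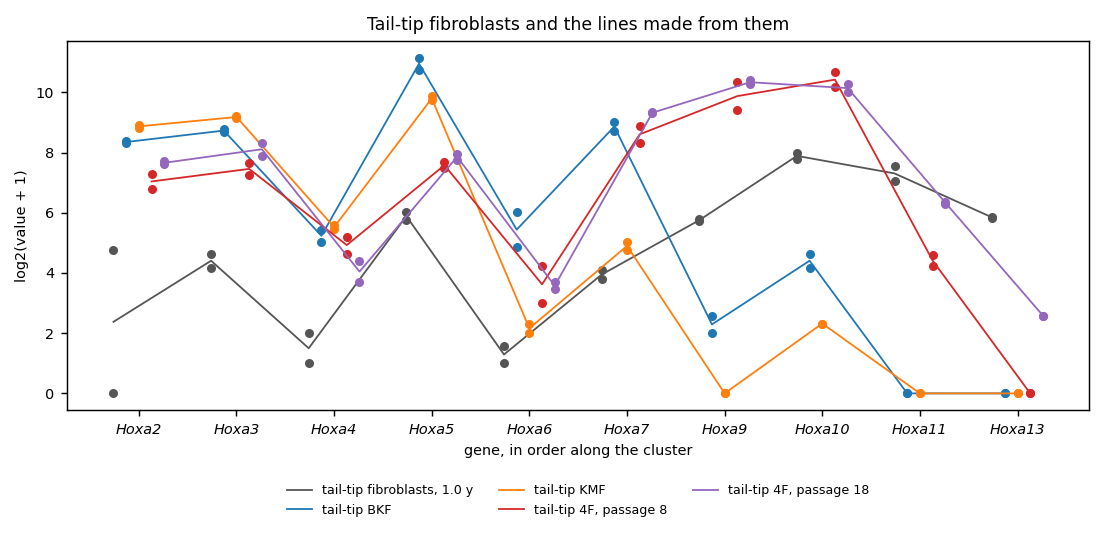
HoxA genes in order along the cluster (x axis) in 1.0-year tail-tip fibroblasts and the lines made from them, as log2(value + 1) (y axis); points are libraries and lines join the means of these logs to guide the eye within a group, while heights of different genes are not comparable. All lines lie above the fibroblasts from Hoxa2 to Hoxa5; at Hoxa9 and Hoxa10 the 4F line at both passages lies above them and BKF and KMF below.

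The lines were also compared with each other. Between 4F at passage 8 and BKF, Hoxa5 was lower in 4F by a log2 fold change of -3.37 ± 0.41 (191.0 ± 18.4 against 2005.5 ± 396.7, SD, n = 2; limma adjusted p = 2.32e-05). Hoxa9 was higher by 7.59 ± 0.69 (989.5 ± 437.7 against 4.0 ± 1.4, limma adjusted p = 1.09e-06), and Hoxa10 by 6.02 ± 1.09 (1393.0 ± 329.5 against 20.5 ± 4.9, limma adjusted p = 7.09e-04). Hoxa7 did not pass the test (-0.26 ± 0.95, limma adjusted p = 0.909), and the libraries overlapped. Here 26.1% of all genes were called. Leaving out any 1 library kept these 3 calls.

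Between 4F at passage 8 and KMF all 4 tested members were called, with 35.5% of all genes. Hoxa5 was lower in 4F (-2.22 ± 0.41), and Hoxa7 (3.71 ± 0.95) and Hoxa10 (8.10 ± 1.09) were higher (limma adjusted p = 5.38e-04, 0.00611 and 2.73e-05). Hoxa9 was listed at 0 in both KMF libraries and averaged 989.5 in 4F (limma adjusted p = 3.27e-08). The 4 calls held with each library left out.

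Between KMF and BKF, 2 of the 4 tested members were called, Hoxa7 and Hoxa9, with 13% of all genes. Hoxa7 was lower in KMF by a log2 fold change of -3.97 ± 0.95 (29.0 ± 4.2 against 468.5 ± 74.2, SD, n = 2, limma adjusted p = 0.0120). The Hoxa7 call was lost without BKF replicate 2, without KMF replicate 1 and without KMF replicate 2, with log2 fold changes of -4.13, -3.82 and -4.11. Hoxa9, at 0 and 0 against 5 and 3, was also called (limma adjusted p = 0.0383) and lost its call without any 1 of the 4 libraries (adjusted p = 0.108 to 0.152). Hoxa5 (-1.16 ± 0.41) and Hoxa10 (-2.08 ± 1.09) were not called, although neither overlapped between the lines.

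None of the 4 tested members passed the threshold between the passages of the 4F line. From passage 8 to 18 the log2 fold changes ran from -0.28 ± 1.09 (Hoxa10) to 0.72 ± 0.95 (Hoxa7); limma called 0 members, with 0 also at an unadjusted p under 0.05, against 35.1% of all genes. Hoxa11 rose over the same passages (1.92 ± 0.24, limma adjusted p = 1.98e-05).

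The ear 4F line carried the same cocktail as the tail-tip 4F line and differed from it in 3 of the 4 tested members. Against tail-tip 4F at passage 8, Hoxa9 was lower in ear 4F by -6.89 ± 0.69 (7.0 ± 1.4 against 989.5 ± 437.7, SD, n = 2) and Hoxa10 by -4.63 ± 1.09 (54.5 ± 2.1 against 1393.0 ± 329.5), with limma adjusted p = 2.16e-06 and 0.00478. Hoxa5 was higher in ear 4F by 1.47 ± 0.41 (limma adjusted p = 0.0148), a call lost without any 1 of the 4 libraries (adjusted p = 0.0512 to 0.0779). Hoxa7 was lower without overlap, at 80 and 98 against 473 and 320, but missed the threshold (-2.12 ± 0.95, limma adjusted p = 0.117). With only the 2 groups compared in the fit, Hoxa7 passed (limma adjusted p = 0.0164). Of all genes, 27.2% were called in the main fit. Donor site, line and passage cannot be told apart here, since the passage of the ear line is not given in the labels used.

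Against embryonic origin, miNSC of adult origin had higher Hoxa9 (4.202 ± 0.31, limma adjusted p = 4.02e-08) and Hoxa10 (3.80 ± 0.49, limma adjusted p = 1.50e-05), while Hoxa5 (-0.07 ± 0.18) and Hoxa7 (0.71 ± 0.43) were not called; 36.9% of all genes were. Neither call was made without the tail-tip 4F groups, where log2 fold changes were 0.86 for Hoxa9 and 1.36 for Hoxa10 (adjusted p = 0.0728 and 0.0737), and Hoxa5 was higher in adult origin by 0.82 (adjusted p = 0.00684). With group means as samples no member was called and 0.0307% of all genes were. Only the embryonic side held ICR and KF lines, and only the adult side held 4F lines. Origin, strain and cocktail thus cannot be told apart in this contrast.

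With cocktails matched, the BKF and KMF lines of tail-tip origin had higher Hoxa5 than those of Sox2-GFP MEF by a log2 fold change of 1.58 ± 0.29 (1448.5 ± 683.6 against 446.2 ± 52.2, SD, n = 4, no overlap; limma adjusted p = 5.47e-04; 33% of all genes called). Hoxa7, Hoxa9 and Hoxa10 were not called (limma adjusted p = 0.305, 0.277 and 0.134). For Hoxa10 the log2 fold change ran from 0.63 to 2.53 with 1 library left out. It was 2.41 without Sox2-GFP MEF BKF replicate 2 and 2.53 without Sox2-GFP MEF KMF replicate 2. The libraries remaining in those groups were at 0. The difference between BKF and KMF lines was also compared between origins, with a call for Hoxa7 alone. In MEF lines Hoxa7 was at 56 and 48 in BKF and 70 and 62 in KMF, and in tail-tip lines at 521 and 416 in BKF and 26 and 32 in KMF. The difference of these differences was -4.31 ± 1.35 (limma adjusted p = 0.0462; 13.1% of all genes called), and it missed the threshold without any 1 of the 8 libraries (adjusted p = 0.0829 to 0.121).

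Strain was asked with the BKF and KF lines of both kinds of MEF. Hoxa7 was higher in ICR lines, at 266 and 246 (BKF) and 436 and 414 (KF), than in Sox2-GFP lines, at 56 and 48 (BKF) and 72 and 64 (KF). The log2 fold change was 2.45 ± 0.67 without overlap (limma adjusted p = 0.0090; 38.4% of all genes called), and the call held with each library left out. The annotated overlap of Hoxa7 with Hoxaas3 bears on this value too, as its strand was not resolved. Hoxa5 had nearly the same mean in both strains (583.5 ± 38.9 and 634.5 ± 172.0, SD, n = 4; -0.08 ± 0.29), with overlap, and Hoxa9 and Hoxa10 were not called. MEF of the 2 strains were not analysed here, so strain and line cannot be told apart.

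No member was called between cocktails in the embryonic lines. For BKF against KF, limma called 0 of 4 members in ICR (13.1% of all genes called) and 0 of 4 in Sox2-GFP (37.7%), and 1 member, Hoxa10, had an unadjusted p under 0.05 in each. Its values were 0 and 8 in ICR BKF against 26 and 29 in ICR KF, and 0 and 9 in Sox2-GFP BKF against 16 and 16 in Sox2-GFP KF (-3.25 ± 1.09 and -2.43 ± 1.09, limma adjusted p = 0.0629 and 0.0942). Hoxa10 values were low, and lower in BKF than in KF lines in both strains, but neither difference was called. With 1 library left out, its log2 fold change ran from -4.83 to -1.66 in ICR and from -4.09 to -0.77 in Sox2-GFP. The lowest values came from fits where the BKF library left was at 0. The difference between BKF and KF lines did not vary between strains past the threshold for any tested member. In limma 0 were called and 0 had an unadjusted p under 0.05, against 32.1% of all genes called.

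For KMF against KF in Sox2-GFP MEF, limma called 0 of 4 members (39.1% of all genes called) and 1, Hoxa5, had an unadjusted p under 0.05. Hoxa5 was at 399 and 404 in KMF against 722 and 834 in KF (-0.95 ± 0.41, limma adjusted p = 0.0828). Hoxa10 was at 0 and 13 in KMF against 16 and 16 in KF. It was not called (-2.18 ± 1.09, limma adjusted p = 0.131). With 1 library left out, its log2 fold change ran from -4.09, where the KMF library left was at 0, to -0.28. For KMF against BKF in these MEF, 0 members were called and 0 had an unadjusted p under 0.05 (10.3% of all genes called).

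**Figure D4:**
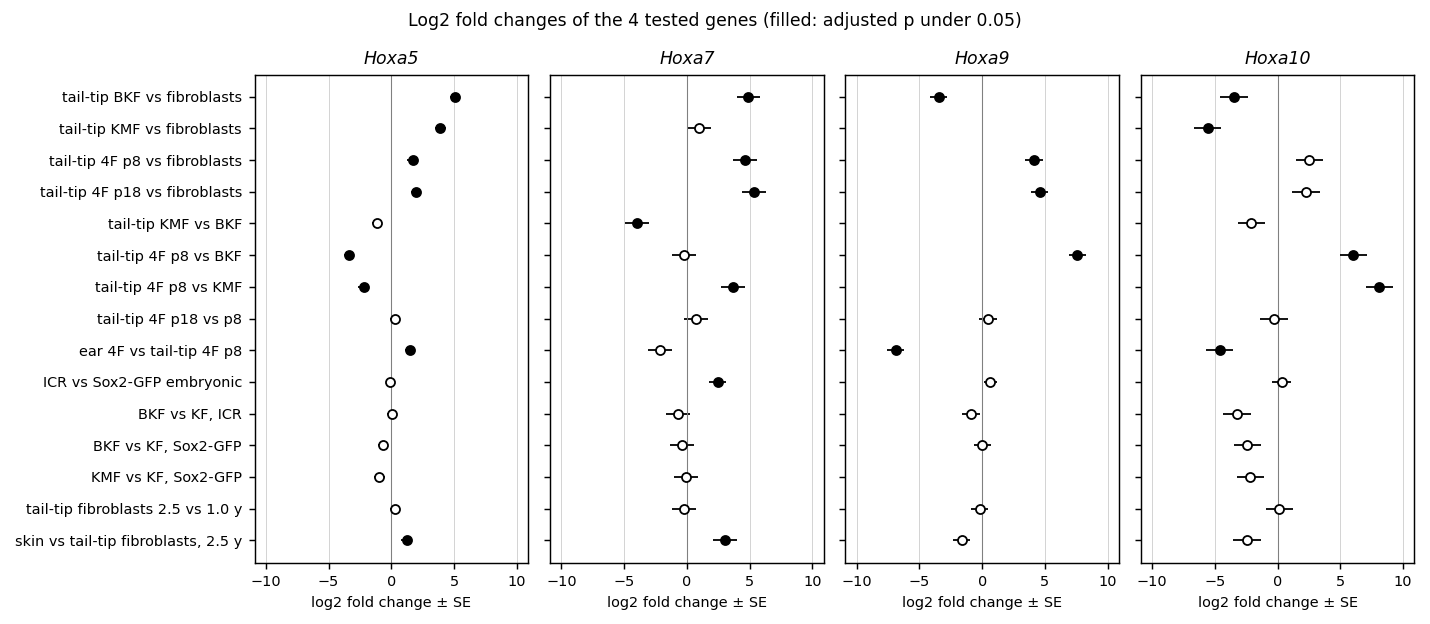
Log2 fold changes (x axis, on the log2(value + 1) scale) with their standard errors for the 4 tested members in 15 comparisons; filled points passed an adjusted p of 0.05 in limma, and no point is drawn where a group was listed at 0 in both libraries. Hoxa9 goes from -3.46 in the tail-tip BKF line to 4.12 and 4.58 in the tail-tip 4F line against the same fibroblasts, while Hoxa5 is above 0 in all 4 tail-tip comparisons with fibroblasts.

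Age of the donor was asked with tail-tip fibroblasts of 2.5 and 1.0 years. Limma called 0 of the 4 members, 0 had an unadjusted p under 0.05, and log2 fold changes ran from -0.25 ± 0.95 (Hoxa7) to 0.30 ± 0.41 (Hoxa5); 11% of all genes were called. Site was compared at 2.5 years. Skin fibroblasts had higher Hoxa5 (1.22 ± 0.41, 161 and 176 against 66 and 78) and Hoxa7 (3.07 ± 0.95, 96 and 122 against 12 and 12) than tail-tip fibroblasts, with limma adjusted p = 0.0389 and 0.0251 and 26.6% of all genes called. Hoxa9, at 16 and 12 against 40 and 52, and Hoxa10, at 40 and 54 against 246 and 270, were lower without overlap but not called (limma adjusted p = 0.0891 and 0.109). Both calls were lost without any 1 of the 4 libraries (adjusted p = 0.0884 to 0.178 for Hoxa5 and 0.0756 to 0.118 for Hoxa7). When only these 2 groups entered the fit, all 4 members passed. Hoxa11 and Hoxa13 were listed at 0 in skin fibroblasts and ran from 124 to 128 and from 59 to 71 in the tail-tip fibroblasts. Markers of other cell types moved with this contrast. Macrophage sums over 4 markers were 369 to 384 in skin and 1187 to 1204 in tail-tip fibroblasts, and astrocyte sums over 4 markers were 112 to 134 and 510 to 555, with Aqp4 listed at 0 in both and Gfap in skin. Skeletal muscle sums over 2 markers were 861 to 940 in skin and 1087 to 1272 in tail tip. Neuron sums over 3 markers were higher in skin, at 2360 to 2586 against 188 to 265, although Snap25 and Syt1 were listed at 0 in skin. The part of these markers in the result was not tested.

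Against NSC, all 4 tested members were called as higher in miNSC, with 40.6% of all genes called and 20.9% called as higher. The libraries of miNSC and NSC overlapped for each of the 4. NSC came from Sox2-GFP mice of 2.5 years, and miNSC from embryonic or 1.0-year cells, in part ICR. Cell type, age and strain thus cannot be told apart here. Hoxa5 was higher by 1.76 ± 0.31 and Hoxa7 by 4.68 ± 0.71 (limma adjusted p = 2.64e-04 and 7.29e-05), while NSC were listed at 0 for Hoxa9 and Hoxa10. The size differed between the 2 NSC libraries, which are 1 at passage 2 and 1 at passage 5, so that passage and library cannot be told apart. Without replicate 1 (passage 2) the log2 fold changes of Hoxa5 and Hoxa7 were 0.67 and 2.07, and without replicate 2 (passage 5) they were 2.85 and 7.28. Hoxa9 lost its call without the tail-tip 4F groups (adjusted p = 0.0708), and with group means as samples no member was called (0.983% of all genes). Markers of other neural cells moved with this contrast. Sums over 3 neuron markers were 1203 to 1813 in NSC and 96 to 970 in miNSC, and over 2 oligodendrocyte markers 764 to 1684 in NSC and 344 to 862 in miNSC. Astrocyte sums over 4 markers were 23491 to 41194 in NSC and overlapped those in miNSC, at 11646 to 29935. The part of these markers in the result was not tested.

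Fibroblasts had lower Hoxa5 (-0.83 ± 0.34, limma adjusted p = 0.0410) and higher Hoxa7 (2.20 ± 0.78, limma adjusted p = 0.0202) than NSC, and Hoxa9 and Hoxa10 were called against NSC at 0; 65.9% of all genes were called. Neither of the first pair kept its direction over the NSC libraries: Hoxa5 was 0.26 higher in fibroblasts without NSC replicate 2, and Hoxa7 was -0.40 without NSC replicate 1. The Hoxa5 call was also lost without 1.0-year tail-tip replicate 2, 2.5-year tail-tip replicate 1 or either skin replicate (adjusted p = 0.0530 to 0.0713). With group means as samples no member was called (33.5% of all genes).

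Over the 14 group means of log2(value + 1), the members did not vary as 1 block. Hoxa9 and Hoxa10 had a Pearson correlation of 0.947 and Hoxa5 and the head-side gene Hoxa3 one of 0.891, while Hoxa5 and Hoxa9 had -0.511. Hoxa6 was most like Hoxa7 among the members (0.753). These describe 14 groups that share lines, strains and origins, and 4F at 2 passages counts as 2 of them.

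The genes outside the members whose group means were most like each member, among 12445 genes, were found by the same correlation. For Hoxa5 they were Gdf1, a growth factor of the TGF-beta family (0.906), Katnal2, Ccdc47, Tmem135 and Ccdc163. Fkbp2 (0.869), Dvl2, Znrd1, Irf3 and Olfr1355 were nearest to Hoxa6. Lage3 (0.921), Rps15, Sumo2, Mrpl11 and Chchd1 were nearest to Hoxa7. Hoxa9 was nearest to Rab3gap1, a regulator of the small GTPase Rab3 (0.880), Ogfod2, Ndufa3, Abcb9 and Rpl36, and Hoxa10 to Sem1 (0.868), Malsu1, Rpl35a, Gtf2h5 and Ndufa3. With 14 points and so many genes, high values of this kind are a description of the table.

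The other Hox clusters and the known partners and regulators of HoxA genes gave the setting of the change from fibroblasts to miNSC, in which 76.5% of genes were called. Of 9 HoxB genes 4 rose and 5 fell, of 9 HoxC genes 0 rose and 9 fell, and of 3 tested HoxD genes 3 rose and 0 fell. Among 8 cofactor genes of the Pbx, Meis and Pknox families, which bind DNA with Hox proteins, 5 rose and 2 fell, with Meis1 at 1.59 ± 0.06. Of 21 Polycomb genes 16 rose and 4 fell, with the chromobox gene Cbx2 at 3.18 ± 0.11 and Jarid2 at 2.59 ± 0.08. Of 15 genes in a list of Trithorax proteins, H3K27 demethylases and other chromatin genes such as Dot1l, Ctcf and Psip1, 14 rose and 0 fell. Of 13 retinoic acid genes, which act on Hox genes in the embryo, 1 rose and 12 fell, with the retinoic acid binding protein gene Crabp1 at -9.00 ± 0.17 and the receptor gene Rarg at -4.87 ± 0.16. Between tail-tip 4F at passage 8 and tail-tip BKF, 0 of 9 HoxB genes rose and 9 fell, and of 8 HoxA genes 3 rose and 1 fell (26.1% of all genes called, 13.1% higher and 12.9% lower). Medians for these lists in that comparison were -1.93 for HoxB and -0.28 for HoxA, beside -0.02 over all tested genes.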

How the data were processed

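Polyadenylated messenger RNA of 28 mouse libraries was sequenced on an Illumina instrument, per the labels' protocols. The authors deposited 1 table of whole-number expression scores, 17295 genes by 28 libraries, treated here as a score because the normalisation is not given in the sources used here and the values are not counts. RSEM, Bowtie2 2.0 and mm10 are named without roles, per the submitters' processing notes. From 8.55 to 11.1% of genes were at 0 in a library, and depth, and so the precision it gives, is unknown.

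Values were changed to log2(value + 1). Genes with a mean of at least 10 (16275) were fitted in limma 3.58.1 (R 4.3.3) with 1 coefficient per group and a variance trend, groups weighing equally, in 24 comparisons. P-values were adjusted by Benjamini-Hochberg at 0.05. The fit was tested on simulated data. Libraries were grouped by their labels. A few genes of the lists are not reported here. Members and gene lists were chosen with earlier results of these data known. Named were all members, other HoxA genes, locus RNAs and flanking genes, up to 4 genes of smallest adjusted p per list, and the 5 genes most correlated with each member (mean of at least 100 in some group, predicted and unnamed genes left out). The single-line comparisons with fibroblasts and the fits without the tail-tip 4F groups were chosen after seeing the data. Alternatives were other pseudocounts, filters, variance priors and sample sets, quantile normalisation, left-out libraries, a replicate block (without NSC) and group means as samples. Annotation was GENCODE M21, and promoters were RefSeq, GRCm38.p6; protein sequences were not used here. Python 3.11.15 with pandas 2.3.3 and matplotlib 3.10.9 summarised and drew values.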

Additional observations from a re-analysis of the deposited data

Results flagged for a closer look

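For Hoxa7 the difference between KMF and BKF lines was tested between tail-tip and embryonic origin, where cocktail and line cannot be told apart. The difference of the log2 differences (KMF minus BKF, tail tip minus Sox2-GFP MEF) was -4.31 (limma adjusted p = 0.0462). It missed the threshold with 0.5 added before the logarithm (limma adjusted p = 0.0892) and without the variance trend (0.0518). Hoxa7 was at 521 and 416 in tail-tip BKF and 26 and 32 in tail-tip KMF, and at 56 and 48 against 70 and 62 in the MEF lines. The value ran from -4.47 to -4.14 with 1 library left out, and the test missed its threshold in each of the 8 cases.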

How the results depend on the processing

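Counts of members called kept within 1.5 times of the main count for ICR against Sox2-GFP lines, 2.5- against 1.0-year tail-tip fibroblasts and the tail-tip 4F comparisons with BKF, KMF and ear 4F, under the alternatives run. Other counts moved as follows. Adding 10 before the logarithm gave 2 for matched tail-tip against MEF lines (main 1), 1 and 1 for BKF against KF in ICR and Sox2-GFP (0), and 4 for skin against tail-tip fibroblasts (2); adding 0.5 gave 1 for the last and 0 for the interaction of origin and cocktail (1). No filter gave 2 for matched tail-tip against MEF and 1 for the interaction of strain and B (0), both through Hoxa6. No variance trend gave 0 for the interaction of origin and cocktail. With only the groups compared in the fit, counts were 4 for tail-tip miNSC against fibroblasts (2), 2 for fibroblasts against NSC (4), 3 for matched tail-tip against MEF, 1 for each of BKF against KF in both strains, KMF against KF and KMF against BKF in MEF (0), 1 for KMF against BKF in tail-tip lines (2), 4 for skin against tail tip, 1 for the interaction of strain and B and 2 for that of origin and cocktail. Group means as samples gave 1 for miNSC against fibroblasts (4) and 0 for miNSC against NSC (4), fibroblasts against NSC (4) and adult against embryonic origin (2); adult-origin miNSC alone gave 2 against fibroblasts. Without the tail-tip 4F groups, counts were 4 for tail-tip miNSC against fibroblasts and 1 for adult against embryonic origin. The causes were not tested.

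Direction reversed for Hoxa9 in tail-tip miNSC against fibroblasts with 10 added (0.86) and in adult-origin miNSC against fibroblasts (0.036). In adult against embryonic origin, Hoxa5 became 0.27 with 4F passages averaged and 0.82 without 4F, and Hoxa7 -0.18 without 4F. In fibroblasts against NSC, leaving out 1 library moved Hoxa7 from -0.40 to 4.81 and Hoxa5 from -1.92 to 0.26, the extremes coming from the NSC libraries. Of 96 member values, 26 never passed the threshold.

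With 1 library left out, counts ran from 1 to 2 for matched tail-tip against MEF, from 0 to 1 for BKF against KF in either strain, KMF against KF and KMF against BKF in tail-tip lines, and from 3 to 4 for fibroblasts against NSC and tail-tip BKF against fibroblasts. They were 2 for ear against tail-tip 4F and 0 for skin against tail tip and for the interaction of origin and cocktail; other counts did not move. A lone library left in a group is assumed to vary like the other groups.

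The replicate numbers did not pair the samples: over 78 pairs of groups the correlation of deviations ran from -0.055 to 0.071, none over 0.1. The replicate block was fitted without the NSC libraries, so the block and the left-out group cannot be told apart. Counts with it were 2 for matched tail-tip against MEF, and 2 and 1 for BKF against KF in ICR and Sox2-GFP. They were 1 for KMF against KF, for passage 18 against 8 and for the interaction of strain and B. The interaction of origin and cocktail had 2.

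Limits are 2 libraries a group, 1 line per cocktail and origin, unknown depth, and low values for Hoxa6 and Hoxa9.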
